A study of Mus musculus with 4 samples.

Results

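The cholesterol set comprised 31 mouse genes for synthesis, transport and regulation of cholesterol, chosen by name as the genes whose array probes carry a RefSeq accession of that symbol. All 31 had a probe and all 31 passed the filter on dim probes, of 21420 genes tested. The study asked whether rearing without light alters gene expression in mouse brain tissue taken at postnatal day 14. The dark-reared group held 2 samples of mice born to dams that had been placed 1 to 4 days before delivery in a cage wrapped in black plastic, and care was given in dim red light up to the day of sampling. The control group held 2 samples of the same age and tissue from standard cages with 12 h of light a day. The tissue of both groups was thalamus and hypothalamus in 1 extract, so neither region was measured by itself. Total RNA of each sample was hybridised to an Agilent one-colour array, and the labels call the samples biological replicates but do not say how many animals each one pools, so a p-value measures the spread between these 4 samples alone. All values are log2 processed signals minus the array's own 75th percentile, and a level of 1 gene's probe cannot be set against that of another.

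The brain makes its own cholesterol, because lipoproteins of the blood do not cross the blood-brain barrier. During the weeks after birth in rodents, oligodendrocytes synthesise large amounts of it for myelin, and astrocytes supply neurons with it in particles built on apolipoprotein E. The enzymes of the pathway share a control: when membrane sterol is low, SCAP escorts SREBP transcription factors away from the INSIG proteins, and the released factor binds sterol regulatory elements in the promoters of the pathway's genes.

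Promoter stretches are shown for the members in which a search found a sterol regulatory element, since SREBP factors bind that motif in promoters of the synthesis pathway. The search covered the 250 bases before the RefSeq transcription start (GRCm38.p6) on both strands, and 25 of the 31 members were matched in the promoter table; Fdps, Fdft1, Sqle, Stard4, Abcg1 and Npc1 were not searched. The longer form TCACNCCAC was found in Hmgcs1 only, 1 of 25 members, against 1.22% of all 27025 genes in the table. The shorter form CACNCCAC, which lies within the longer one, was found in Hmgcs1, Insig1 and Acat2, 3 of 25 members against 6.05% of all genes. The stretches below are written 5′ to 3′ along the gene's own strand, with the motif in capitals. In Hmgcs1 the motif starts 137 bases before the start site (chr13:119690194-119690242, plus strand). In Insig1 it lies on the opposite strand, 9 bases before the start site (chr5:28071383-28071411, plus strand). Acat2 held 2 matches, the first 181 bases before its start site (chr17:12960879-12960926, minus strand) and the second, on the opposite strand, 53 bases before it (chr17:12960751-12960798, minus strand).
Hmgcs1: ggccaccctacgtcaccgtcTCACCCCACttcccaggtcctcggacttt
Insig1: ggcgcggtacgtgtagtgtcGTGGCGTGt
Acat2, first match: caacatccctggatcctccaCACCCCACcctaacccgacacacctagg
Acat2, second match: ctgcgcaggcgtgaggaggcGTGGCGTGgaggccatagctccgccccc
The CCAAT box, bound by NF-Y, was found in 21 of 25 members (84%) against 37.5% of all genes, and the GC box GGGCGG, bound by Sp1, in 22 of 25 (88%) against 35.4%. In all these counts a gene with several start sites counted if any of them had a match. Counted by start site, the CCAAT box was found in 62.9% of the members' windows against 33.8% of all windows. For the GC box these shares were 71.4% and 32.7%. A match is a run of letters in this window and does not show that a factor binds there.

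The arrays differed in ways that the rearing groups do not cover. Of 41174 probes, 70.6% and 70.9% were well above background in dark-reared 1 and 2, and 73.3% and 65.9% in control 1 and 2, with no saturated spot. Dark-reared 2 and control 2 shared a slide, while dark-reared 1 and control 1 each lay on a slide of their own. Xist, the RNA that silences 1 X chromosome in female cells, had log2 signals of 3.42 in dark-reared 1 and -5.81 in dark-reared 2, against 3.79 in control 1 and -6.48 in control 2. Ddx3y, a Y-linked helicase gene, read -0.32 and 1.07 in dark-reared 1 and 2, against -6.54 and 1.18 in control 1 and 2, so that dark-reared 1 gave signal of both genes. Replicate number and Xist signal divided the 4 arrays in the same way, and the arrays without Xist signal were those of the shared slide, so the 3 cannot be told apart where both replicate 2 arrays are set against the other arrays. The regional markers were uneven as well: 9 tested markers of the hypothalamus lay on average 1.67 below their 4-array mean in dark-reared 1, 0.35 above it in dark-reared 2, 1.36 above it in control 1 and 0.03 below it in control 2. For 11 thalamic markers the mean deviations were -1.05 and 0.32 in the dark-reared samples and 1.06 and -0.32 in the control samples. Dark-reared 1 gave the lowest value for 5 of the 9 and 6 of the 11 markers, and control 1 the highest for 7 of each list. The hypothalamic hormone gene Oxt read -3.31 and 2.50 in dark-reared 1 and 2, against 3.97 and 2.38 in control 1 and 2. The part of regional content in the results below was not tested.

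For no cholesterol gene was a rearing difference called. Of the 31 members, 0 had an adjusted p under 0.05 in limma with Benjamini-Hochberg adjustment over all genes, as was so for 0% of the 21420 genes tested. An unadjusted p under 0.05 was found for 0 members and 266 genes. On the brightest probe of each gene, the members' differences (dark-reared minus control, log2) ran between -0.27 for Idi1 and 0.12 for Nsdhl. Their median was -0.06, while the median over all genes was -0.01. Dimmer probes past the filter reached -0.33 in Lss, -0.30 in Soat1 and 0.16 in Nsdhl. Of the members, 10 were nominally higher and 21 lower in dark-reared samples; 32.3% of members and 48.2% of all genes were nominally higher. The count of higher members was 9 to 15 when the scaling, the background correction or the choice of probe was changed, and 15 with normexp, where the medians were -0.01 for the members and -0.12 for all genes. With 1 array left out it was between 5 (without control 2) and 21 (without control 1), and the members' median turned above 0 without dark-reared 2 (0.07) or control 1 (0.08). On the brightest probe of each gene, both dark-reared values lay on one side of both control values in 0 of 31 members. That separation was seen in 19.1% of all genes. The count was 2 of 31 with other scalings, the deposited values or the mean over a gene's probes and 5 with normexp, against 19.1% to 23.4% of all genes in those settings. Dimmer probes past the filter showed the separation, with the main scaling, in Soat1 (lower in dark-reared samples) and Nsdhl (higher in dark-reared samples). The number of arrays limits the precision: the 95% limma interval of a member extended between 0.40 and 1.01 log2 units (median 0.59) to each side. All 31 intervals covered 0. In 27 of 31 the interval lay within 1 log2 unit, a 2-fold change, of 0, and those of Idi1, Lss, Hsd17b7 and Npc2 went beyond it. For groups of 2 and 2 the smallest p that an exact two-sided permutation test allows is 0.333. In tissue samples, fewer cells of a type and less RNA per cell cannot be told apart.

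**Figure D1:**
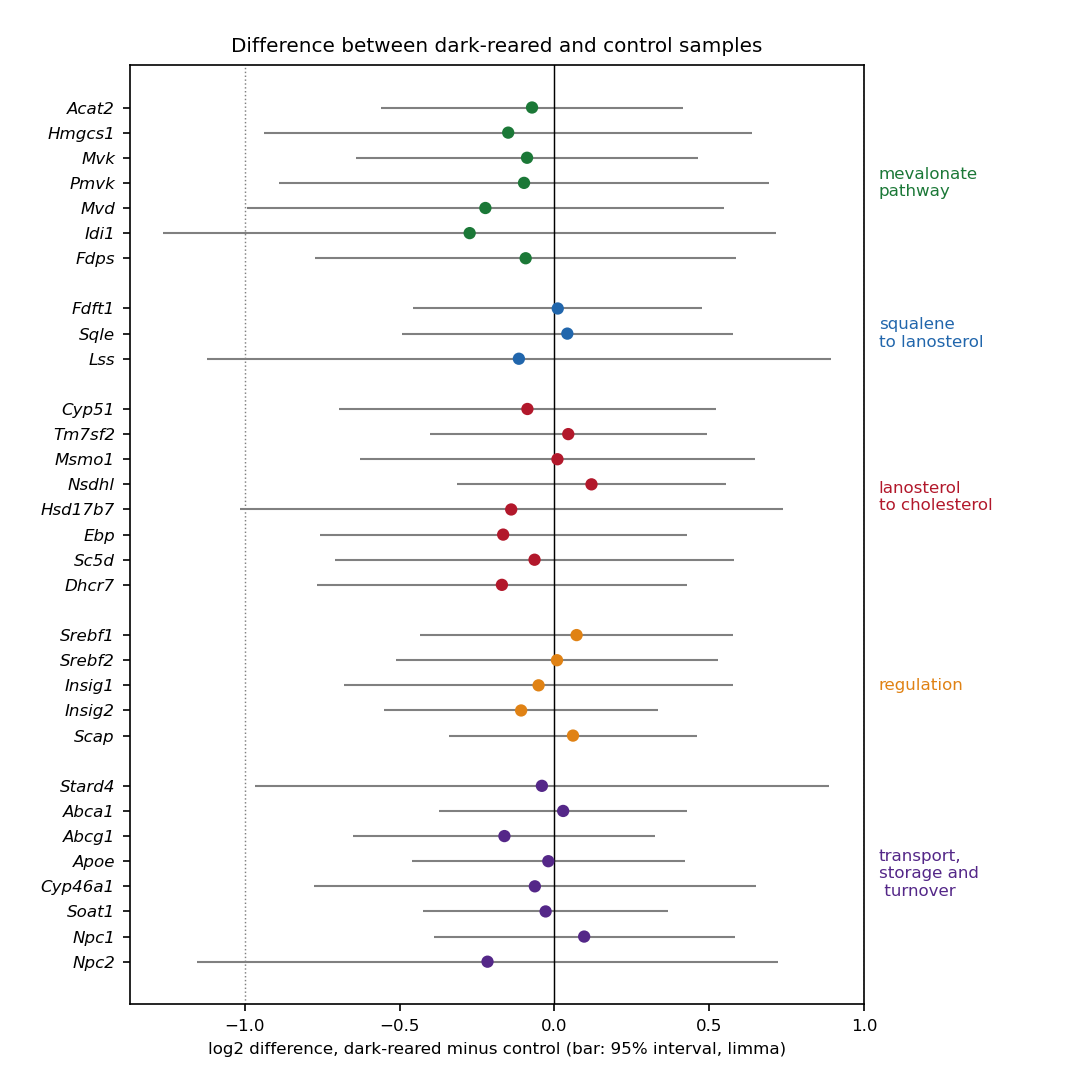
Log2 difference between dark-reared and control samples for the 31 cholesterol genes, ordered by role, with the 95% limma interval as a bar (2 arrays a group). All points lie between -0.27 and 0.12, and every bar crosses 0; dotted lines mark 1 log2 unit.

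The mevalonate pathway turns acetyl-CoA into the isoprenoid farnesyl diphosphate, and its 7 members were all nominally lower in dark-reared samples (median difference -0.10). The sign was not stable: Hmgcs1, Pmvk and Fdps were positive with normexp background correction, Mvk, Pmvk and Fdps within the shared slide and Mvk on its other probe (0.08), and each of the 7 was positive in at least 1 of the 4 fits with 1 array left out. Acat2, the cytosolic thiolase that makes acetoacetyl-CoA, read -0.32 and -0.61 in the dark-reared samples against -0.35 and -0.44 in control samples. Hmgcs1, the synthase for hydroxymethylglutaryl-CoA whose promoter stretch with the longer motif is shown above, read 5.33 and 4.94 in dark-reared 1 and 2, against 5.57 and 4.99 in control 1 and 2. The 2 arrays of each group lay farther apart than the groups did, with means of 5.13 ± 0.27 in dark-reared and 5.28 ± 0.41 in control samples (SD, n = 2 each). Its difference of -0.15 ± 0.28 (SE) had an unadjusted limma p of 0.626. Mevalonate kinase, Mvk, read -0.70 and -0.86 in dark-reared against -0.51 and -0.87 in control samples. Phosphomevalonate kinase, Pmvk, read 3.05 and 3.52 in dark-reared against 3.64 and 3.13 in control samples, and was the only enzyme of the 7 that was lower in dark-reared 1 than in dark-reared 2.

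Mvd, the decarboxylase that yields isopentenyl diphosphate, read 1.39 and 0.80 in the dark-reared samples against 1.48 and 1.16 in control samples. Its difference of -0.22 ± 0.28 (SE; unadjusted limma p 0.466) was smaller than the gap of 0.59 between the dark-reared arrays. Idi1, the isomerase that makes dimethylallyl diphosphate, had the lowest group difference of the set on the probes used. It read 2.84 and 2.06 in dark-reared 1 and 2, against 2.97 and 2.48 in control 1 and 2. The values overlapped, because dark-reared 1 lay above control 2. The difference was -0.27 ± 0.36 (SE), with a 95% interval between -1.26 and 0.72 and an unadjusted limma p of 0.484. Farnesyl diphosphate synthase, Fdps, read 1.66 and 1.47 in dark-reared against 1.92 and 1.39 in control samples, with both dark-reared values between the control values.

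The next steps lead on to lanosterol, the first sterol of the pathway, and there the 3 differences had both signs. Squalene synthase, Fdft1, which commits farnesyl diphosphate to sterols, read 1.63 and 1.38 in dark-reared against 1.54 and 1.45 in control samples (difference 0.01 ± 0.17, SE). Squalene epoxidase, Sqle, read 2.77 and 2.88 in dark-reared against 2.97 and 2.61 in control samples (difference 0.04 ± 0.19, SE). Both dark-reared values of Sqle lay between its control values, and both control values of Fdft1 between its dark-reared values. Lanosterol synthase, Lss, which closes the rings, read -0.92 and -1.51 in dark-reared 1 and 2, against -0.73 and -1.46 in control 1 and 2. Its arrays formed a high pair (dark-reared 1 and control 1) and a low pair (dark-reared 2 and control 2). The group difference of -0.11 ± 0.36 (SE) had an unadjusted limma p of 0.767, and the difference was -0.33 on its dimmer probe.

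Of the 8 enzymes that convert lanosterol to cholesterol, 3 were nominally higher and 5 lower in dark-reared samples (median difference -0.08). Cyp51, the lanosterol demethylase, read -0.12 and -0.46 in dark-reared against -0.04 and -0.37 in control samples. The sterol reductase Tm7sf2 read 2.77 and 2.87 in dark-reared against 2.88 and 2.68 in control samples. Msmo1, the methylsterol oxidase, read 4.27 and 3.78 in dark-reared against 4.09 and 3.94 in control samples, and its group difference was 0.01 ± 0.23 (SE). Nsdhl, the sterol dehydrogenase that acts after Msmo1, had the highest group difference of the set. It read 0.23 and 0.16 in dark-reared 1 and 2, against 0.17 and -0.02 in control 1 and 2, with a difference of 0.12 ± 0.16 (SE; 95% interval between -0.32 and 0.55; unadjusted limma p 0.485). The groups overlapped by little on the probe used, since dark-reared 2 lay just below control 1. On another probe the difference was 0.16, and both dark-reared values (-0.55 and -0.41) lay above both control values (-0.58 and -0.69). On the remaining probe the difference was 0.07, and the groups overlapped.

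The ketosteroid reductase Hsd17b7 read 2.16 and 1.65 in dark-reared 1 and 2, against 2.35 and 1.74 in control 1 and 2, the same division into a high and a low array of each group as in Lss. The sterol isomerase Ebp read 2.90 and 2.59 in dark-reared against 3.07 and 2.75 in control samples (difference -0.17 ± 0.21, SE). Ebp and Nsdhl are X-linked in mice, and on the probes used both were higher in the arrays with Xist signal than in the other array of the same group, as were 14 of the 18 enzymes in all; another probe of Nsdhl was lower in dark-reared 1 than in dark-reared 2 (a difference of -0.14 on the log2 scale). The desaturase Sc5d read 2.07 and 1.78 in dark-reared against 2.21 and 1.77 in control samples. Dhcr7, the reductase of the last step of 1 branch of the pathway, read 2.98 and 3.15 in dark-reared against 3.44 and 3.02 in control samples (difference -0.17 ± 0.21, SE). Control 1 alone stood out as high in Dhcr7.

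The 5 regulators, which sense sterol and switch the pathway, had mean deviations between -0.07 and 0.08 on the 4 arrays, where those of the 18 enzymes lay between -0.16 and 0.23. Srebf1, whose product acts mainly on fatty acid genes, read 3.04 and 3.24 in dark-reared against 3.20 and 2.94 in control samples. Srebf2, whose product acts mainly on sterol genes, read -0.25 and -0.60 in dark-reared against -0.44 and -0.43 in control samples; its group difference was 0.01 on the probe used and -0.21 on its other probe. Scap, the escort of both factors, read 3.91 and 3.80 in dark-reared against 3.80 and 3.78 in control samples, a difference of 0.06 ± 0.14 (SE). The retention factor Insig1 is itself an SREBP target. It read -0.93 and -1.22 in dark-reared 1 and 2, against -0.82 and -1.22 in control 1 and 2, so that its values fell into the same high and low pairs as those of Hmgcs1. Insig2, the other retention factor, read 1.59 and 1.79 in dark-reared against 1.84 and 1.75 in control samples and showed no such pairs.

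Among the genes for transport, storage and turnover, 2 were nominally higher and 6 lower in dark-reared samples (median difference -0.03). The efflux transporter Abca1 read 0.75 and 0.70 in dark-reared against 0.65 and 0.75 in control samples. The efflux transporter Abcg1 had the lowest unadjusted p of the set on the probes used. It read 1.71 and 1.44 in dark-reared against 1.68 and 1.80 in control samples, with a difference of -0.16 ± 0.17 (SE), an unadjusted limma p of 0.409 and an adjusted p of 1.00. Apoe, which encodes the main apolipoprotein of brain, read 7.21 and 7.27 in dark-reared against 7.36 and 7.15 in control samples. Its means were 7.24 ± 0.04 in dark-reared and 7.26 ± 0.15 in control samples (SD, n = 2 each), and the interval of the difference ran between -0.46 and 0.42. Cyp46a1, the neuronal hydroxylase that clears cholesterol out of the brain, read 0.61 and 0.07 in dark-reared 1 and 2, against 0.26 and 0.55 in control 1 and 2. With Srebf2, Abca1 and Abcg1 it was among the 4 members that were lower in control 1 than in control 2, and all 4 were higher in dark-reared 1 than in dark-reared 2.

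Soat1, which esterifies cholesterol for storage, read -0.63 and -0.70 in dark-reared against -0.61 and -0.67 in control samples. That was the narrowest spread of the transport genes on the probes used. On dimmer probes Soat1 read -2.36 and -2.44 in dark-reared against -2.27 and -2.24 in control samples, and -3.98 and -4.22 against -3.71 and -3.90. On both of these, the dark-reared values lay below the control values. The last probe was well above background on 3 arrays. The sterol carrier Stard4 read 0.22 and 0.25 in dark-reared 1 and 2, against 0.70 and -0.15 in control 1 and 2. The wide control values made up a 1.80-fold difference between control arrays, the largest of the set on the probes used, and were larger on this probe (0.85 log2 units) than on the other probes of the gene (0.48 and 0.37). The lysosomal exporter Npc1 read -0.78 and -0.97 in dark-reared against -0.86 and -1.09 in control samples (difference 0.10 ± 0.17, SE). Its partner Npc2, which hands cholesterol to Npc1 inside the lysosome, read 2.51 and 1.72 in dark-reared 1 and 2, against 2.50 and 2.15 in control 1 and 2. Dark-reared 2 stood apart as low, and the difference of -0.22 ± 0.34 (SE) had an unadjusted limma p of 0.556.

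**Figure D2:**
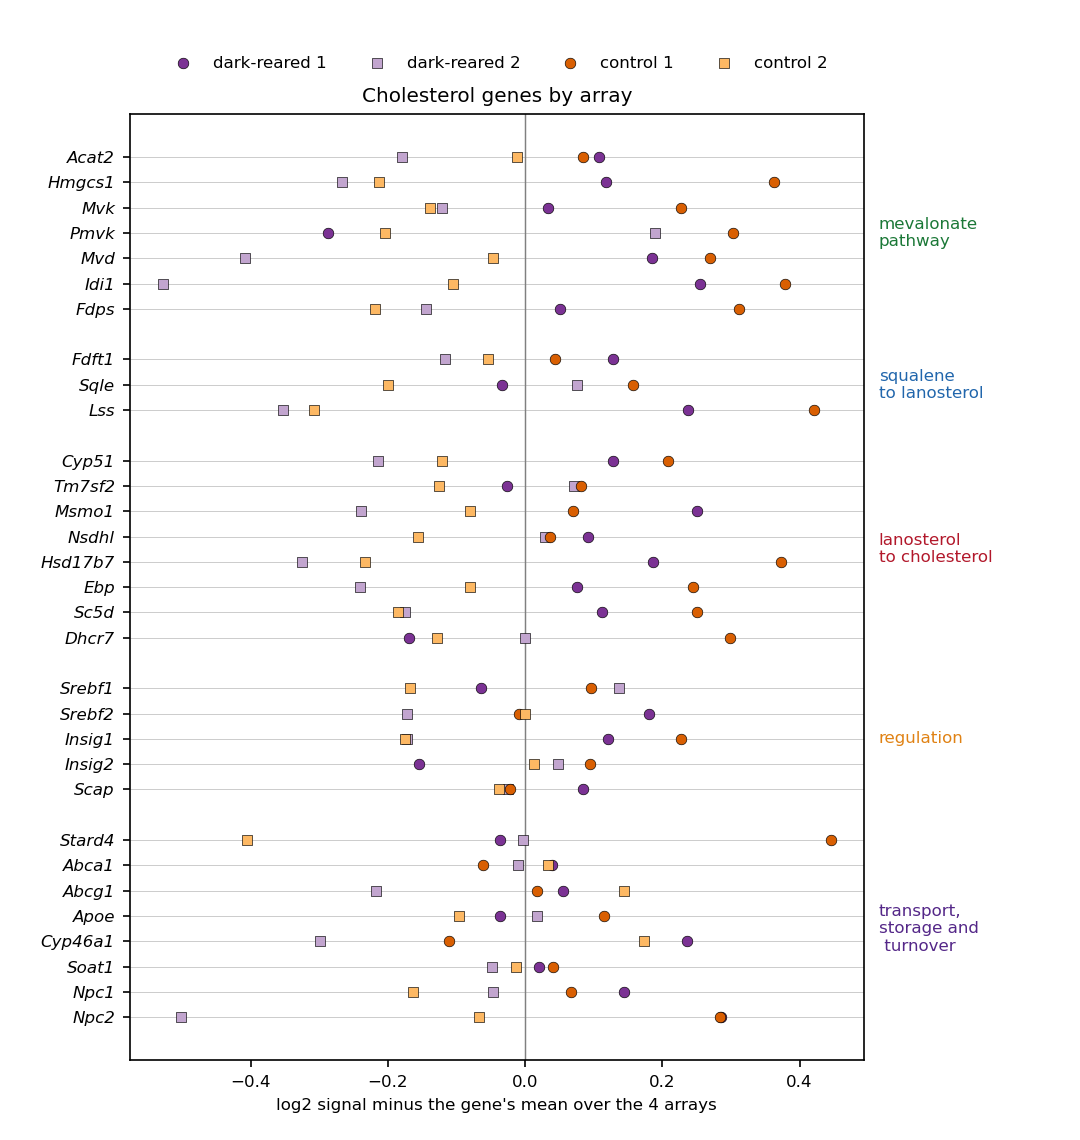
Log2 signal of each cholesterol gene on each array after subtraction of the gene's mean over the 4 arrays, ordered by role; circles are dark-reared 1 and control 1, squares dark-reared 2 and control 2. In 14 of the 18 synthesis enzymes both circles lie to the right of both squares. In none of the 31 genes do the 2 rearing groups separate with this scaling on the probe shown, the brightest of each gene.

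Most synthesis enzymes were higher in the same array of each group. Of the 18 enzymes, 14 were higher in dark-reared 1 than in dark-reared 2 and 18 were higher in control 1 than in control 2 (17 with normexp). For all 31 members the counts were 23 and 27, and for all genes the shares were 50% and 47.8%. The median gap was 0.29 log2 units between the dark-reared arrays and 0.36 between the control arrays for the enzymes, against -0.00 and -0.02 for all genes. Both dark-reared 1 and control 1 lay above both dark-reared 2 and control 2 in 14 of 18 enzymes (11 with normexp) and in 19 of 31 members, against 15.4% of all genes. By role these were 6 of 7 genes of the mevalonate pathway, 2 of 3 up to lanosterol and 6 of 8 after it, but 2 of 5 regulators (Insig1 and Scap) and 3 of 8 transport genes (Soat1, Npc1 and Npc2). Scap had it by a near tie, with 3.799 in control 1 and 3.796 in dark-reared 2. The counts by role depend on the probe. Another probe of Stard4 past the filter had this arrangement, while the other probes of Soat1 and another probe of Nsdhl lacked it. The reverse arrangement was found in 0 of 31 members, against 17% of all genes. A gene with either arrangement cannot have dark-reared and control values that do not overlap, so the 2 kinds of count are not independent. The 4 enzymes outside the pattern, Pmvk, Sqle, Tm7sf2 and Dhcr7, had lower values in dark-reared 1 than in dark-reared 2.

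On the probes used, which are the brightest of each gene, the highest ratio between dark-reared 1 and dark-reared 2 was 1.73-fold, in Npc2, followed by 1.72-fold in Idi1, and Mvd and Lss each reached 1.51-fold. Between control 1 and control 2 the ratio was 1.66-fold in Lss, 1.52-fold in Hsd17b7 and 1.49-fold in Hmgcs1. The gaps of a dimmer probe were larger for Lss (1.09 log2 units between dark-reared and 0.90 between control arrays) and for Idi1 (0.81 and 0.74). The size of a gene's gap in one group did not follow its size in the other: across the 31 members the correlation of the gaps was 0.04 and across the 18 enzymes 0.16, against -0.16 over all genes, and these genes share the same 4 arrays. Dark-reared 2 was lowest for 15 of 31 members, against 28.3% of all genes, and control 2 for 12, against 17.5%. Dark-reared 1 was highest for 10 members, against 25.9% of all genes, and control 1 for 19, against 23.7%. In 8 members, 7 of them enzymes, dark-reared 2 was lowest, followed by control 2, dark-reared 1 and control 1, an order found in 5.38% of all genes.

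**Figure D3:**
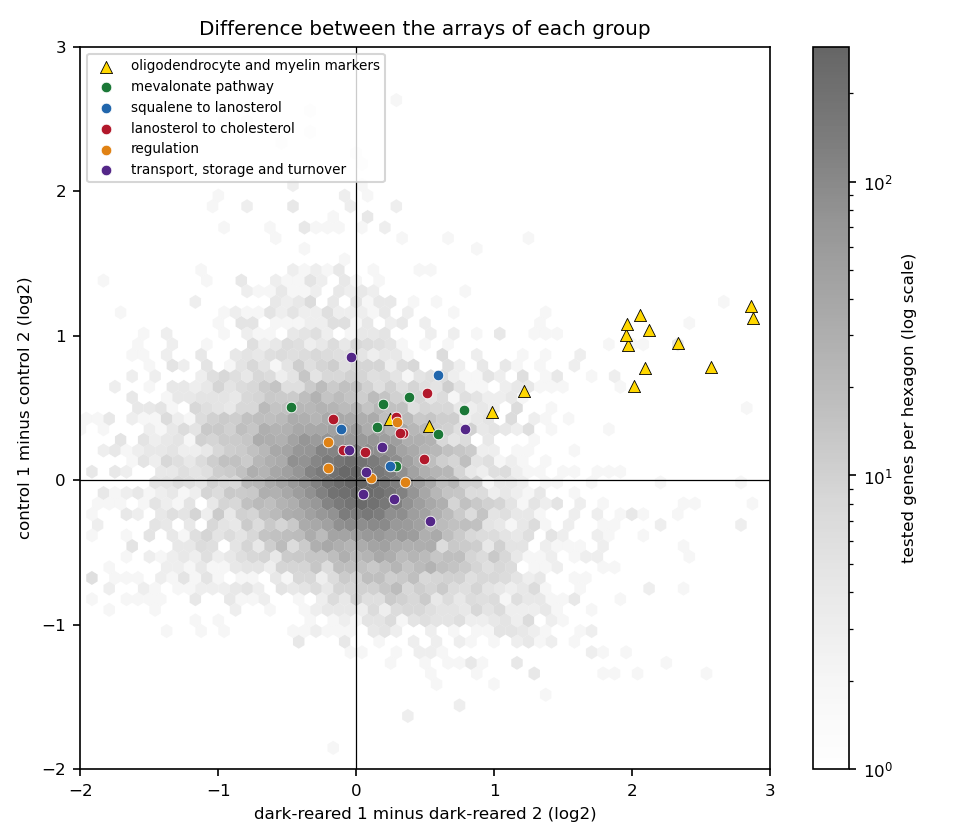
Gap between the dark-reared arrays (horizontal axis) and between the control arrays (vertical axis), both in log2 units; points are cholesterol genes by role, triangles oligodendrocyte and myelin markers, and grey hexagons the tested genes (309 lie outside the axes). All 18 synthesis enzymes lie above the horizontal line and 14 of them also to the right of the vertical line, nearer to the origin than most myelin markers.

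Matched by replicate number, the rearing groups gave the following values. Dark-reared 1 exceeded control 1 in 11 of 31 members and 4 of 18 enzymes, against 49.7% of all genes; these arrays lay on different slides. Dark-reared 2 exceeded control 2, on the shared slide, in 15 of 31 members and 8 of 18 enzymes, against 48.4% of all genes, with a median difference of -0.04 over the members. These are values of 1 array against 1 and have no test.

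The same high and low arrays were seen in the markers of oligodendrocytes, the myelin-forming cells. All 15 tested markers of that list (16 listed) had both dark-reared 1 and control 1 above both dark-reared 2 and control 2. The median gap of these markers was 2.01 log2 units between dark-reared arrays and 0.94 between control arrays, larger than that of the enzymes in both groups. Mbp, which encodes myelin basic protein, read 7.50 and 5.49 in dark-reared 1 and 2, against 7.55 and 6.90 in control 1 and 2. The summed view of the list gave mean deviations of 0.63 and -1.23 in dark-reared 1 and 2, and 0.72 and -0.12 in control 1 and 2. For the enzymes the mean deviations were 0.08 and -0.16 in dark-reared and 0.23 and -0.15 in control samples. Dark-reared 2 was lowest for 14 of the 15 myelin markers and 10 of the 18 enzymes, and control 2 was lowest for 1 myelin marker and 6 enzymes. All 15 myelin markers were nominally lower in dark-reared than in control samples, with a median difference of -0.73. None of the 15 passed the limma test between dark-reared and control samples (0 with an unadjusted p under 0.05).

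Markers of other cell types had this division in fewer of their genes, and 15.4% of all genes had it. Among astrocyte markers 3 of 12 had it, with median gaps of -0.13 between dark-reared and 0.19 between control arrays. None of 10 microglial markers had it, their median gap being 0.38 between dark-reared and -0.60 between control arrays. It was found in 2 of 10 markers of endothelium and pericytes and 3 of 12 of neurons. Choroid plexus markers had it in 5 of 7, but there control 2 alone was far below the others, as in Ttr, the transthyretin gene, with 2.65 and 1.58 in dark-reared and 2.51 and -1.77 in control samples. Apod, a lipid carrier of oligodendrocytes and other glia, read 1.79 and 0.31 in dark-reared 1 and 2, against 2.12 and 1.14 in control 1 and 2. It is not in a marker list and had the largest gaps of the lipoprotein and lipid transfer list below. In that list 6 of 25 genes (24%) had the division, against 15.4% of all genes. The part of oligodendrocyte content, slide or Xist signal in the values of the enzymes was not tested.

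**Figure D4:**
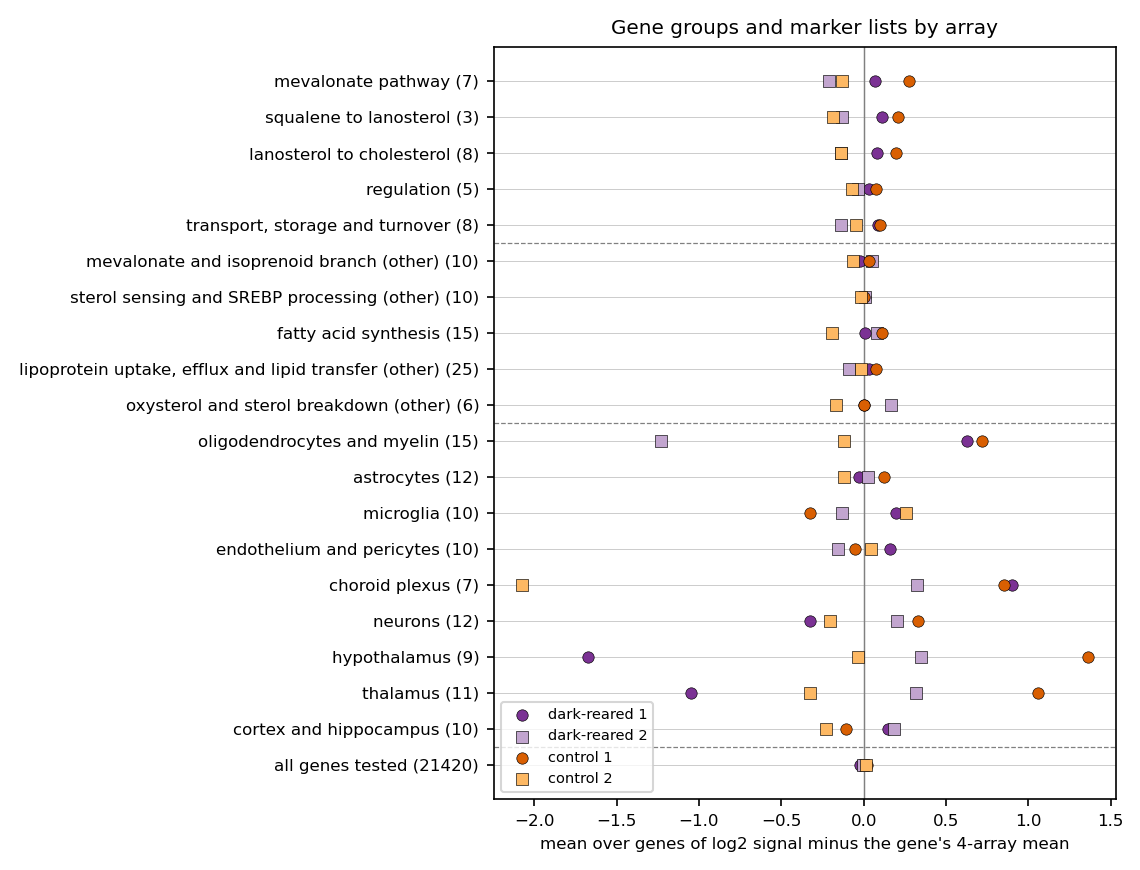
Mean over genes of the log2 signal minus each gene's 4-array mean, for the 5 roles of the cholesterol set, 5 other lipid lists, 9 marker lists and all genes tested, with the number of genes in brackets. The arrays lie close together for the enzyme groups, as with -0.21 to 0.28 for the mevalonate pathway, and far apart for oligodendrocytes and myelin, with -1.23 to 0.72. They also lie far apart for choroid plexus (-2.07 to 0.90), hypothalamus (-1.67 to 1.36) and thalamus (-1.05 to 1.06).

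Related pathways outside the set had 0 genes past the limma threshold. Of 10 tested genes (12 listed) of other isoprenoid steps, 4 were nominally higher and 6 lower in dark-reared samples. The array division seen in the enzymes was found in 3 of the 10, against 15.4% of all genes. Coq2, of ubiquinone synthesis, and Fnta, a subunit of the prenyl transferases for proteins, had differences of -0.15 and -0.16. Of 10 tested genes (11 listed) of sterol sensing and SREBP processing, 4 were nominally higher and 6 lower with a median of -0.00. Groups that did not overlap were found in 0 of the 10, against 19.1% of all genes. The 3 with the lowest p in that list were Erlin2, Mbtps1, the protease that cuts SREBPs first, and Erlin1, with differences of 0.20, -0.13 and 0.16.

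Fatty acid synthesis is the other branch under SREBP control. Of its 15 genes, 7 were nominally higher and 8 lower in dark-reared samples, and 5 had groups that did not overlap (33.3%, against 19.1% of all genes). Thrsp, a regulator of lipogenesis, read -0.83 and -0.10 in dark-reared 1 and 2, against -0.96 and -1.65 in control 1 and 2, a difference of 0.85 ± 0.38 (SE; unadjusted limma p 0.0919). The desaturase Scd1 read 0.99 and 1.11 in dark-reared against 0.92 and 0.43 in control samples, and the desaturase Fads1 read 1.66 and 1.76 in dark-reared against 1.53 and 1.47 in control samples. Both were nominally higher in each dark-reared sample than in either control sample, by 0.37 and 0.21 on average. The division into high replicate 1 and low replicate 2 arrays was found in 3 of the 15 (20%), against 15.4% of all genes.

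Of 25 tested genes (27 listed) of lipoprotein uptake, efflux and lipid transfer, 10 were nominally higher and 15 lower in dark-reared samples (median -0.05). The array division was found in 6 of the 25. The lowest p in that list belonged to Nceh1, a hydrolase of cholesteryl esters, Abca2 and Star, with differences of -0.27, -0.28 and -0.18. Of 6 tested genes (7 listed) of oxysterol synthesis and sterol breakdown, 3 were nominally higher and 3 lower. Ch25h, which makes the oxysterol that restrains SREBP processing, read -3.80 and -1.88 in dark-reared 1 and 2, against -3.99 and -4.01 in control 1 and 2. Its difference was 1.16 ± 0.70 (SE; unadjusted limma p 0.171), with dark-reared 2 alone standing out as high. Hsd3b7 and Cyp11a1, next in that list by p, differed by -0.07 and -0.19.

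**Figure D5:**
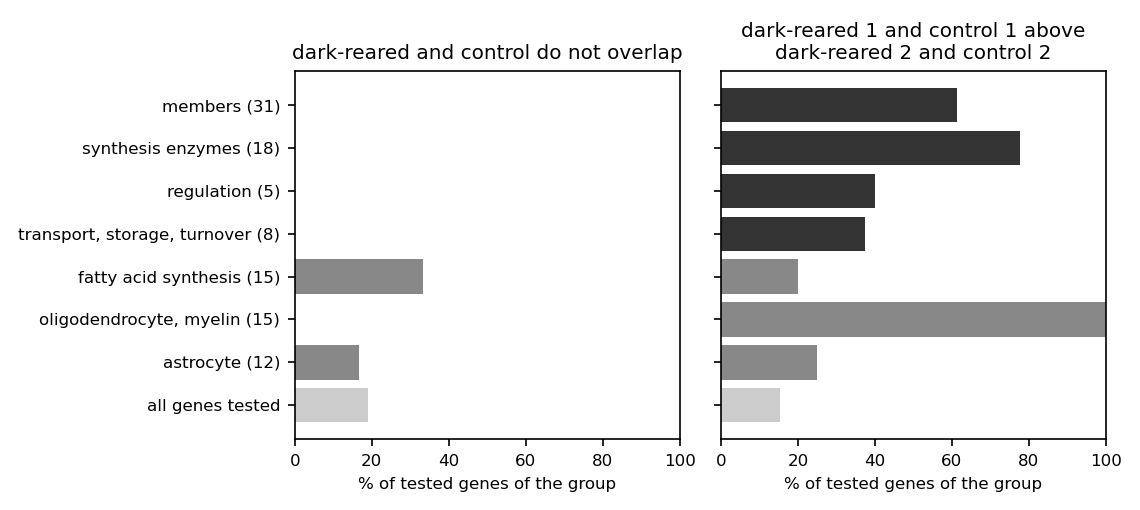
Share of tested genes whose dark-reared and control values do not overlap (left) and share with dark-reared 1 and control 1 both above dark-reared 2 and control 2 (right), for the cholesterol set, its parts, 3 other lists and all genes tested. With this scaling and the brightest probe of each gene, the left bar is 0 for the cholesterol set, against 19.1% of all genes. The right bar is 77.8% for the synthesis enzymes against 15.4%. A gene counted on the right cannot be counted on the left, so the 2 shares are not independent.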

How the data were processed

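Spot intensity values were made by the authors with Agilent Feature Extraction 10.7, per the submitters' processing notes, where the file headers give 10.7.3.1. Its processed signal is background-subtracted and detrended within 1 array. The authors' deposited log2 values, with a median of 6.84 on every array, served only as an alternative; how they were normalized is not stated in the sources used here. The scanner's deposited flags (0 or 1, other values) marked control, outlier and well-above-background spots. Of 45018 spots, 43379 were not controls; outlier spots (79 to 103 per array) were left out, spots of a probe averaged, log2 taken and each array's 75th percentile (764 to 794) subtracted. Symbols came from RefSeq accessions (26918 of 41174 probes, 18350 symbols). The array annotation refers to mm9; sequences and their positions are from RefSeq GRCm38.p6. A probe was kept (28442 were) if the 2 arrays of a group both showed it well above background, and the brightest probe stood for a gene. Of 50 probes for the members, 48 passed; 14 members had over 1 such probe, which gave the same sign of the group difference in 12 (not Mvk and Srebf2). limma 3.58.1 in R 4.3.3 compared the groups (two-sided, Benjamini-Hochberg over all genes, threshold 0.05); the test was tested on simulated data. A fit with slide as a term has no degrees of freedom left, and the difference within the shared slide is given in its place. All arrays were scanned on 1 day. Precision is limited by signal over background and by the number of arrays (4). Every member is named; of the other lists, up to 3 genes with the lowest unadjusted p, and further genes where they illustrate a count or an array; of the genes so picked, 1 is not reported here. The members and lists were chosen with earlier results of these data known. The normexp alternative used median spot and background signals with an offset of 50.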

Additional observations from a re-analysis of the deposited data

How the results depend on the processing

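Under the 15 alternatives that give a test, 0 members passed the adjusted threshold in limma. Members whose groups do not overlap numbered 2 with median normalization, quantile normalization, normexp with outlying local backgrounds replaced, the deposited log2 values or the mean over a gene's probes, and 5 with normexp background correction, against 19.1% to 23.4% of all genes; with 1 array left out, where the lone sample is taken to have the spread of the other group, they numbered 13 to 20, against 49.7% to 65.9% of all genes. With 1 array left out, 5 to 21 members were nominally higher in dark-reared samples (9 and 20 without dark-reared replicate 1 or 2, 21 and 5 without control replicate 1 or 2), and their median difference was between -0.17 and 0.085, above 0 without dark-reared replicate 2 (0.072) or control replicate 1 (0.085). Single members whose sign turned had the following log2 differences (dark-reared minus control) over the 4 fits with 1 array left out: -0.44 to 0.14 for Hmgcs1, -0.27 to 0.095 for Mvk, -0.35 to 0.16 for Pmvk, -0.52 to 0.074 for Mvd, -0.66 to 0.12 for Idi1, -0.36 to 0.17 for Fdps, -0.11 to 0.13 for Fdft1, -0.14 to 0.22 for Sqle, -0.48 to 0.25 for Lss, -0.26 to 0.084 for Cyp51, -0.058 to 0.15 for Tm7sf2, -0.24 to 0.25 for Msmo1, -0.44 to 0.16 for Hsd17b7, -0.28 to 0.15 for Sc5d, -0.38 to 0.044 for Dhcr7, -0.22 to 0.072 for Acat2, -0.060 to 0.20 for Srebf1, -0.17 to 0.18 for Srebf2, -0.25 to 0.15 for Insig1, -0.47 to 0.38 for Stard4, -0.020 to 0.076 for Abca1, -0.13 to 0.086 for Apoe, -0.33 to 0.20 for Cyp46a1, -0.063 to 0.0065 for Soat1, -0.019 to 0.21 for Npc1 and -0.61 to 0.18 for Npc2. With median normalization the sign turned for Apoe (0.013) and Soat1 (0.0041). With quantile normalization the sign turned for Apoe (0.019). With normexp the sign turned for Hmgcs1 (0.047), Pmvk (0.13), Fdps (0.0027), Sc5d (0.014), Srebf2 (-0.087), Insig2 (0.033), Stard4 (0.024), Apoe (0.15) and Npc1 (-0.036). With those backgrounds replaced the sign turned for Lss (0.025), Srebf2 (-0.047), Stard4 (0.019), Abca1 (-0.016) and Soat1 (0.022). With the deposited log2 values the sign turned for Apoe (0.017). With the mean over a gene's probes the sign turned for Srebf2 (-0.10). Within the shared slide, where the members had a median of -0.04, the sign turned for Mvk (0.018), Pmvk (0.39), Fdps (0.075), Fdft1 (-0.063), Msmo1 (-0.16), Sc5d (0.010), Dhcr7 (0.13), Srebf2 (-0.17), Insig1 (0.0034), Insig2 (0.035), Stard4 (0.40), Abca1 (-0.045) and Apoe (0.11). The cause was not tested, except that the normexp fit failed on control 2 (its fitted background mean was -236, and -5.70 to 2.97 on the other arrays) and moved the median of all genes to -0.12. The labels give no pairing by replicate number, beside the slide that both replicate 2 arrays shared: the gaps between arrays correlated at -0.16 over 21420 genes, and with the replicate block 0 members had a p under 0.05 (lowest unadjusted limma p 0.274). Dark-reared 1 and control 1 lay above dark-reared 2 and control 2 in 11 to 14 of the 18 enzymes over 6 scalings, 11 of them with normexp.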
